A study of Mus musculus with 2 samples.

Results

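The glucocorticoid receptor gene Nr3c1 and 6 genes known to be induced through the receptor, Fkbp5, Tsc22d3, Per1, Sgk1, Klf9 and Zfp36, were followed in single microglia of the mouse hypothalamus. These 7 genes were taken by name from the 31053 genes listed in the count matrices, and all 7 had counts. Cells entered if they had 500 or more UMIs and 300 or more genes seen, and if mitochondrially encoded (mt-) genes took no more than 10% of their UMIs; a UMI is a molecular tag that counts 1 captured RNA molecule once. Wild-type young mice had received dye-labelled plasma protein 20 hours earlier, and hypothalamic microglia pooled from several of them were sorted by flow cytometry into cells without the dye (plasma-negative) and cells with it (plasma-positive). Each sort gave 1 droplet library, so groups are compared without replicates: no test was possible, and every interval below is a 95% interval of counting error only, without the variation of animals, sorting or library making. The sources used here give no group without the injection, and no age in weeks, sex or time of day of collection.

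Glucocorticoids, chiefly corticosterone in the mouse, enter cells and bind the receptor, which waits in the cytoplasm in a complex with heat shock protein chaperones. The bound receptor moves into the nucleus, where it binds glucocorticoid response elements as a dimer and raises the transcription of genes such as Fkbp5, whose product in turn lowers the receptor's affinity for the hormone. The hypothalamus directs the release of these hormones, and microglia, the resident macrophages of the brain, carry the receptor and respond to it mainly by lowering inflammatory gene expression.

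The promoter windows of the response genes are shown because the members were chosen as targets of 1 receptor. RefSeq windows for GRCm38.p6, from 250 bases before to 50 bases after a transcription start, held 14 starts of the 6 response genes, and none was used for Nr3c1. The complete palindrome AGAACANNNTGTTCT, the form of a glucocorticoid response element searched here, lay in 3 of 32851 windows of this length (0.00913%). Of these 3, 1 belonged to Sgk1, with its first base 189 bases before the start. The E-box CACGTG, the element bound by the clock proteins, lay in 7.15% of all windows and in 3 of the 14, at Per1, Fkbp5 and the same start of Sgk1. The stretches are printed on the strand of the gene, with the element in capitals.
Sgk1 response element, chr10:21993681-21993735, plus strand: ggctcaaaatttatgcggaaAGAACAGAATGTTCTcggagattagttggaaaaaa
Sgk1 E-box, chr10:21993640-21993669, plus strand: tcctCACGTGttcttggcatggctaggatt
Per1 E-box, chr11:69098763-69098808, plus strand: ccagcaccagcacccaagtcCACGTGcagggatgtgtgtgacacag
Fkbp5 E-box, chr17:28486293-28486338, minus strand: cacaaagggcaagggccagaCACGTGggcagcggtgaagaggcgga
The single arm AGAACA, read on both strands, was in 19.0% of all windows and in 4 of the 14, at Sgk1 and Tsc22d3, counting both arms of the complete Sgk1 element. The cyclic AMP element TGACGTCA, in 1.79% of all windows, was in 0 of the 14. A match describes the letters and is no evidence of binding, and response elements farther from the start were not searched.

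The filter kept 9860 of 9878 plasma-negative cells, with 34534518 UMIs and a median of 3270.5 UMIs and 1586 genes per cell, and 10362 of 10390 plasma-positive cells, with 41984977 UMIs and a median of 3753 UMIs and 1739 genes. The median mt- share was 1.08% and 1.27%. The label was checked against 11 microglia markers: at least 4 of them were seen in 99.7% of cells in both libraries, and each was seen in 64.4% to 99.8% of cells. At least 4 markers of border macrophages were seen in 0 plasma-negative cells and 1 plasma-positive cell, and no cell held 4 markers of another type. No cell type that should lack these genes was present, so the share of cells with a UMI from free RNA could not be measured. Levels are given as counts per 1000000 UMIs of the library (CPM). Because 3′ counting gives 1 tag per molecule, CPM was not divided by gene length, and capture can still differ between genes.

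The receptor and its response genes were at nearly the same level in both sorts. Among the 5 members with at least 10 CPM, 0 were higher and 0 were lower in the plasma-positive library by 1.2-fold or more. Of all 8355 genes at that level, 1.32% were higher and 2.31% lower by that size, so a count of 0 among 5 genes is near the background. At 1.5-fold the member counts were also 0 and 0, beside 0.323% and 0.0239% of all genes. The median log2 ratio of plasma-positive to plasma-negative over all tested genes was -0.04, with quartiles at -0.11 and 0.04, and the 5 members lay between -0.07 for Nr3c1 and 0.04 for Tsc22d3, which was at percentile 76.3 of all genes.

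Nr3c1, the receptor itself, gave 8406 UMIs or 243 CPM (238 to 249) in plasma-negative cells and 9751 UMIs or 232 CPM (228 to 237) in plasma-positive cells. The ratio was 0.954 (0.927 to 0.983), a log2 ratio of -0.07. Its interval lies below 1, but the shift is within the middle range of all genes. By level it ranked 578th of all genes in one library and 611th in the other. When every cell was thinned to 1000 UMIs, which leaves 9064 and 9759 cells and drops 796 and 603 shallower ones, an Nr3c1 UMI was seen in 20.4% (19.6 to 21.3) of cells without the dye and in 19.7% (18.9 to 20.5) of cells with it. Without thinning the shares were 48.9% and 52.7%, the higher one in the deeper library. The receptor was thus seen in about as many cells of each sort at equal depth.

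Sgk1, a serum- and glucocorticoid-inducible kinase that regulates ion channels and transport, had the highest level of the group. The gene spans chr10:21882184-21999903 on the plus strand in GENCODE M21 (GRCm38), so the start with the complete response element lies inside it. Sgk1 gave 12027 UMIs or 348 CPM (342 to 355) and 14289 UMIs or 340 CPM (335 to 346), a ratio of 0.977 (0.954 to 1.0). An Sgk1 UMI was seen in 27.5% and 27.3% of thinned cells. Its spread over cells was wider than that of the receptor: the variance over the mean of thinned counts was 1.21 and 1.22, against 1.05 and 1.04 for Nr3c1, where pure counting noise gives about 1. Single cells reached 25 and 28 Sgk1 UMIs, against 11 and 10 for Nr3c1. In unthinned counts, the 1% of cells highest in each gene held 7.42% and 6.89% of Sgk1 UMIs and 7.08% and 6.92% of Nr3c1 UMIs. These shares also depend on cell depth and on the level of the gene, so they do not compare the spread of the genes. The Sgk1 promoter stretch with the complete response element is the one printed above.

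Fkbp5 encodes the co-chaperone that is both induced by the receptor and damps it, from chr17:28399094-28517527 on the minus strand. It gave 1598 UMIs or 46.3 CPM (44.0 to 48.6) and 1878 UMIs or 44.7 CPM (42.7 to 46.8), with a ratio of 0.967 (0.904 to 1.03). Tsc22d3, known as GILZ, encodes a leucine zipper protein that binds and restrains inflammatory transcription factors, from chrX:140539528-140600659 on the minus strand. It gave 1572 UMIs or 45.5 CPM (43.3 to 47.8) and 1966 UMIs or 46.8 CPM (44.8 to 48.9), a ratio of 1.03 (0.962 to 1.1). Tsc22d3 was the only 1 of the 5 tested members with a ratio above 1. Its thinned share was 4.38% (3.97 to 4.82) and 5.09% (4.66 to 5.55), but another random thinning gave 4.18% and 4.43%, so no difference in share is read from it.

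Zfp36, which encodes tristetraprolin, a protein that marks AU-rich cytokine mRNAs for decay, gave 2574 UMIs or 74.5 CPM (71.7 to 77.5) and 3044 UMIs or 72.5 CPM (69.9 to 75.1). The ratio was 0.973 (0.923 to 1.03), and 6.95% and 6.92% of thinned cells had a UMI. The gene lies at chr7:28376784-28380253 on the minus strand, and an antisense gene there, Gm44710, had 1 UMI in each library. In level Zfp36 stood between Nr3c1 and the pair of Fkbp5 and Tsc22d3.

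Per1, a negative arm of the circadian clock that glucocorticoids also induce, was sparse: 232 UMIs or 6.72 CPM (5.88 to 7.64) against 265 UMIs or 6.31 CPM (5.57 to 7.12). Klf9, a zinc finger repressor induced by glucocorticoids and thyroid hormone, had the lowest counts, at 85 UMIs or 2.46 CPM (1.97 to 3.04) and 109 UMIs or 2.6 CPM (2.13 to 3.13). Per1 lies at chr11:69095217-69109960 and Klf9 at chr19:23141226-23168134, both on the plus strand. Both were under the 10 CPM minimum and are outside the counts above. The ratio was 0.94 (0.785 to 1.13) for Per1 and 1.05 (0.787 to 1.42) for Klf9, so changes somewhat beyond 1.2-fold lie within their intervals and were not detectable at this depth. A UMI was seen in 0.585% and 0.717% of thinned cells for Per1 and in 0.265% and 0.266% for Klf9.

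**Figure D1:**
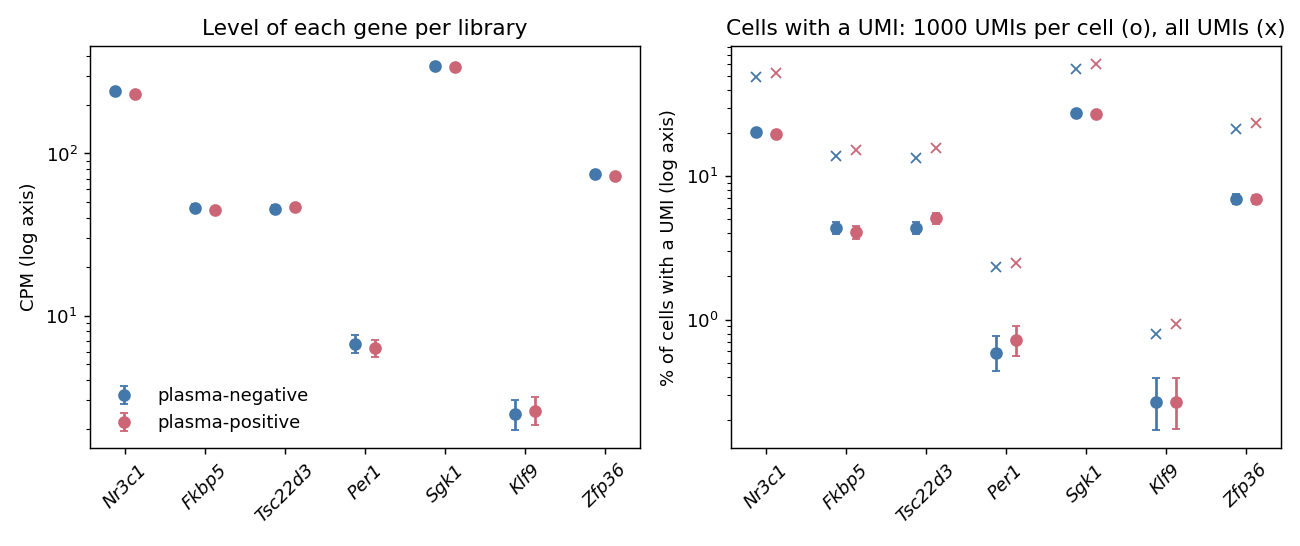
Level and detection of the 7 genes in the plasma-negative (blue) and plasma-positive (red) library. Left, CPM on a log axis; right, percent of cells with a UMI on a log axis, in cells thinned to 1000 UMIs (circles) and unthinned (crosses); bars are 95% counting intervals. Sgk1 (348 and 340 CPM) and Nr3c1 (243 and 232 CPM) lead, and Klf9 is lowest at 2.46 and 2.6 CPM.

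The order of levels was the same in both libraries except for 1 pair: Sgk1, Nr3c1, Zfp36, then Fkbp5 and Tsc22d3, then Per1 and Klf9. Fkbp5 and Tsc22d3 exchanged places, and their intervals overlap in each library. All other neighbours in the order had intervals that do not overlap.

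**Figure D2:**
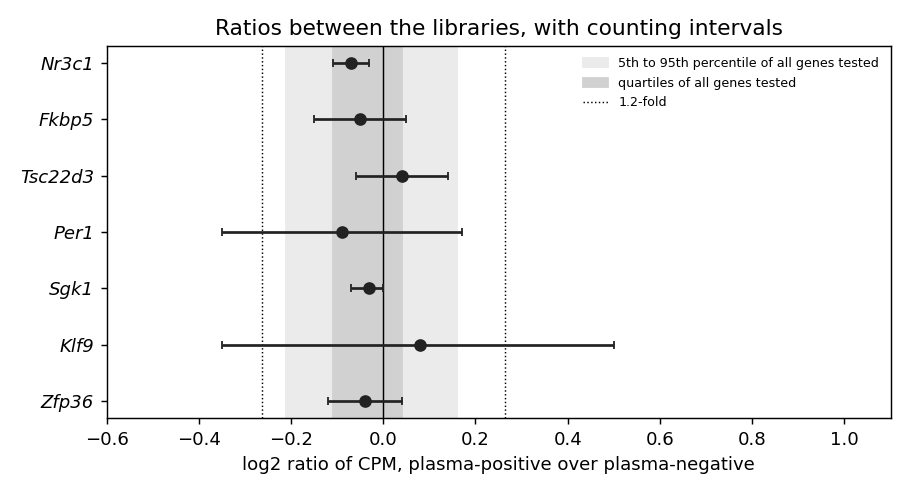
Log2 ratio of CPM, plasma-positive over plasma-negative, for each gene with its 95% counting interval (points and bars). The dark band spans the quartiles of all 8355 tested genes (-0.11 to 0.04), the light band their 5th to 95th percentile (-0.21 to 0.16), and dotted lines mark 1.2-fold; the 7 points lie between -0.09 for Per1 and 0.08 for Klf9.

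The chaperone complex that holds the receptor was also close between the sorts. Among 10 genes for receptors and chaperones, 9 had at least 10 CPM, with 0 at 1.2-fold in either direction and a median log2 ratio of 0.09, against -0.04 over all genes. Hspa8 was at 411 and 459 CPM, and the HSP90 gene Hsp90ab1 at 616 and 656 CPM. Bag1, a nucleotide exchange factor for HSP70, was at 104 and 117 CPM, and Fkbp4, the immunophilin that competes with the Fkbp5 product, was lower, at 55.0 and 50.2 CPM. The mineralocorticoid receptor gene Nr3c2, whose product binds corticosterone with high affinity, gave 7.76 and 8.34 CPM, far under Nr3c1. Coregulators numbered 10 of 10 tested, with 0 at 1.2-fold and a median of -0.02; the corepressor Nrip1 was at 641 and 593 CPM. Hsd11b1, which regenerates active corticosterone inside cells, and Hsd11b2, which inactivates it, each had 0 UMIs in plasma-negative cells and 1 UMI in plasma-positive cells; a count of 0 allows up to 0.0869 CPM there, taken as 3 counts of the total. Among the 3 tested genes of steroid conversion and efflux, 0 reached 1.2-fold and the median was -0.11.

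Most other genes known to be induced by glucocorticoids were slightly lower in plasma-positive cells. Of 26 listed, 15 had at least 10 CPM and 2 of these had a ratio above 1; 1 was higher and 1 lower by 1.2-fold. The median log2 ratio was -0.13, against a median of -0.04 and a lower quartile of -0.11 over all genes. Ratios below 1 were thus the commoner kind among all genes too. Mt1, a metallothionein also induced by metals, was at 158 and 196 CPM, a ratio of 1.24 (1.2 to 1.28). Cdkn1a, the cell cycle inhibitor p21 and also a p53 target, was at 28.6 and 18.6 CPM, a ratio of 0.651 (0.592 to 0.716). Nfkbia, which encodes an inhibitor of NF-kappaB, was at 150 and 130 CPM, a log2 ratio of -0.20. Dusp1, a phosphatase that is a classic receptor target, gave only 2.14 and 2.95 CPM and was outside the count.

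Relatives of the members were measured because they share a fold or a function with them. Of 13, 11 were tested, with 1 higher and 1 lower at 1.2-fold and a median of -0.11. Klf2 was at 17.1 and 23.0 CPM, a ratio of 1.34 (1.21 to 1.49), and Tsc22d1 at 13.6 and 11.1 CPM, a log2 ratio of -0.29. Tsc22d4, at 703 and 673 CPM, was above Tsc22d3, and both Zfp36l1 (349 and 337 CPM) and Zfp36l2 (457 and 450 CPM) were above Zfp36. Sgk3, at 71.3 and 74.4 CPM, was below Sgk1.

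Clock genes other than Per1 were tested in 9 of 16 cases, with a median log2 ratio of -0.15 and 0 of the 9 ratios above 1. Over all genes the median was -0.04 and the quartiles -0.11 and 0.04, so ratios below 1 were the commoner kind there too. Only Hlf, an output transcription factor of the clock, passed 1.2-fold, at 12.7 and 9.84 CPM with a ratio of 0.777 (0.678 to 0.891). Dbp, another output factor, was at 16.7 and 14.2 CPM, and Nr1d2, a repressor of the clock, at 40.4 and 35.5 CPM. Per1, at -0.09, lay near them but with an interval from -0.35 to 0.17.

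Chemokine genes from a list that glucocorticoids are known to repress were higher in plasma-positive cells. Of 16 inflammatory genes, 9 were tested, 5 were higher in plasma-positive cells by 1.2-fold and 0 lower, 4 of the 5 by 1.5-fold, and the median log2 ratio was 0.48. The 5 were chemokine genes: Ccl5 at 2.58 and 24.2 CPM, Ccl2 at 3.33 and 12.2, Ccl4 at 20.7 and 44.1, Cxcl10 at 8.95 and 14.8, and Ccl3 at 16.4 and 22.9. Few cells held them: at 1000 UMIs per cell Ccl4 was seen in 1.03% and 0.973% of cells and Ccl3 in 1.1% and 0.932%, so the share of cells with these genes was not higher, while Ccl5 was seen in 0.199% and 0.707% and Ccl2 in 0.243% and 0.769%. Il1a, at 81.3 and 86.0 CPM, and Il6, at 18.3 and 18.0 CPM, did not reach 1.2-fold. Scarcer genes of the list, under the CPM minimum and named after their values were seen, were outside the count. Of these, Il1b was higher in plasma-positive cells, at 1.65 and 4.64 CPM, a ratio of 2.81 (2.09 to 3.85). Cxcl2 was higher too, at 0.376 and 2.55 CPM, a ratio of 6.77 (3.8 to 13.1). Tnf at 1.15 (0.939 to 1.42), Ptgs2 at 4.11 (0.46 to 195) and Il12b at 4.94 (0.599 to 227) had intervals that held 1. With a minimum of 50 CPM the chemokines drop out and the median of the list is -0.05. A list of interferon-induced genes was higher in 11 of 11 tested, with a median of 1.31. Nr3c1 and the 4 tested response genes were within 1.2-fold in the same libraries in which these genes were higher.

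**Figure D3:**
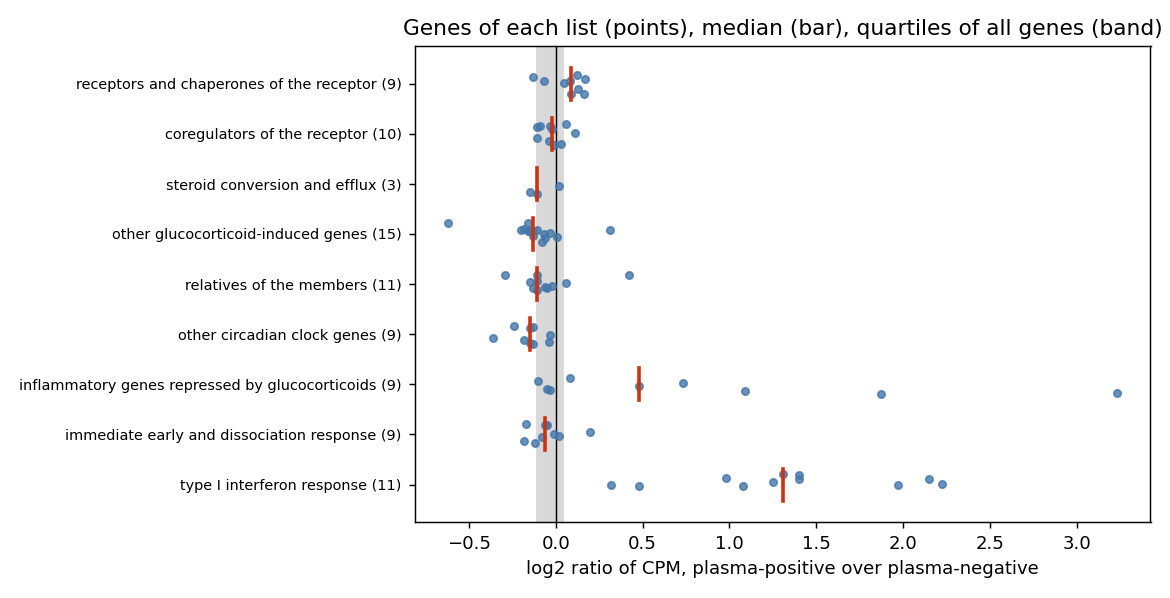
Log2 ratio of CPM, plasma-positive over plasma-negative, for each tested gene (points) of 9 lists, with the list median (red bar) and the quartiles of all genes (grey band). Numbers in brackets are tested genes; the medians run from -0.15 for the clock genes to 0.48 for the inflammatory genes and 1.31 for the interferon list.

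Dissociation of tissue induces immediate early genes, and those with at least 10 CPM were close between the sorts. Of 18 listed, 9 were tested and 0 reached 1.2-fold, with a median of -0.06; Jun was at 208 and 183 CPM, and Junb at 216 and 208 CPM. Some scarcer genes of the list, named after their values were seen, were higher in plasma-positive cells. Fos was at 0.261 and 0.691 CPM, a ratio of 2.65 (1.22 to 6.36), and Egr1 at 2.75 and 4.41 CPM, 1.6 (1.24 to 2.07). Egr2 was at 0.55 and 0.977 CPM, 1.77 (1.01 to 3.24), and Egr3 at 0.174 and 0.572 CPM, 3.29 (1.31 to 9.84). In contrast, Hspa1b was lower, at 0.579 and 0.262 CPM, 0.452 (0.196 to 0.99). Hspa1a at 0.754, Fosb at 0.823, Nr4a1 at 0.925 and Nr4a2 at 1.4 had intervals that held 1. Cells were then classed by their thinned UMIs of this list. Sgk1 was higher in cells with 3 or more such UMIs than in cells with 0, by 1.21 times (1.08 to 1.35) in plasma-negative and 1.28 times (1.14 to 1.43) in plasma-positive cells. The ratio for Zfp36, itself an immediate early gene, was 1.18 (0.925 to 1.49) and 1.54 (1.22 to 1.93), and with all UMIs of the same cells it was 1.27 (1.12 to 1.44) and 1.39 (1.24 to 1.56). Tsc22d3 gave 0.834 (0.585 to 1.17) and 0.764 (0.542 to 1.06) by the same classes, and with all UMIs 0.918 (0.775 to 1.08) and 0.973 (0.828 to 1.14). This classing was not set against all genes, and the part of dissociation in these levels was not tested.

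Sgk1 also moved with the mt- share of the cell. Cells in the top quintile of that share had 0.807 times (0.72 to 0.904) and 0.75 times (0.67 to 0.839) the level of cells in the bottom quintile. In plasma-negative cells Zfp36 at 0.651 (0.496 to 0.848), Fkbp5 at 0.687 (0.49 to 0.951) and Nr3c1 at 0.854 (0.74 to 0.984) were lower too. In plasma-positive cells the intervals of Zfp36, Fkbp5 and Nr3c1 held 1. Nr3c1 moved with depth. Its level was 1.33 times (1.15 to 1.53) and 1.23 times (1.07 to 1.42) as high in the top quintile of UMI totals as in the bottom one. Neither the mt- share nor the depth classing was set against all genes. Over 6 such classings, 7 genes and 2 libraries, 84 end-to-end ratios were computed, of which 8 had intervals above 1 and 11 below 1. The matching share over all genes was not computed, so this count is not read as a result about the members. The intervals leave out that UMIs of 1 gene cluster within cells, so they are too narrow for Sgk1.

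Sgk1 and Nr3c1 were lower in the plasma-positive cells that were rich in Apoe. Apoe, the apolipoprotein E gene, is known to be higher in activated microglia, and cells were classed by its UMIs after thinning to 1000; levels below use all UMIs of the same cells. The class with 3 or more Apoe UMIs held 637 plasma-positive and 158 plasma-negative cells. In plasma-positive cells Sgk1 was at 3.54 UMIs per 10000 (3.47 to 3.6) where no Apoe was seen, 3.28 with 1 Apoe UMI, 3.46 with 2, and 2.29 (2.12 to 2.46) with 3 or more. The ratio of the ends was 0.646 (0.599 to 0.697). Nr3c1 followed the same steps at 2.4, 2.22, 2.35 and 1.66 per 10000, an end ratio of 0.691 (0.632 to 0.755). Zfp36 was at 0.721 and 0.718 per 10000 at the ends, a ratio of 0.995 (0.865 to 1.14). Fkbp5 gave 0.752 (0.613 to 0.915) and Tsc22d3 0.851 (0.706 to 1.02). For Sgk1 and Nr3c1 the large step was thus at the top Apoe class. The interval of the end ratio lay below 1 for Sgk1, Nr3c1 and Fkbp5 and held 1 for Zfp36 and Tsc22d3. It also held 1 for the sparse Per1, at 1.28 (0.803 to 1.97), and Klf9, at 0.72 (0.257 to 1.63). The median end ratio of 711 genes with at least 200 CPM in both libraries was itself below 1, at 0.898. The Fkbp5 interval held that median, and the intervals of Sgk1 and Nr3c1 lay below it.

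In plasma-negative cells the same ends differed less for Sgk1, at 0.832 (0.71 to 0.969), and for Nr3c1, at 0.819 (0.676 to 0.984). Both intervals held 0.934, the median ratio of the 711 genes there. Zfp36, at 0.745 (0.508 to 1.05), and Tsc22d3, at 0.764 (0.465 to 1.18), had lower ratios than in plasma-positive cells. Fkbp5 gave 1.06 (0.703 to 1.54). These came from 32, 20 and 28 UMIs in the top class, and all their intervals held 1. The plasma-positive ratio over the plasma-negative one was 0.777 (0.655 to 0.92) for Sgk1 and 0.844 (0.689 to 1.03) for Nr3c1, and 0.559 (0.407 to 0.768) and 0.848 (0.558 to 1.29) from thinned counts. These intervals hold counting error only, and with 1 library per group the difference has no replicate check. The top classes also differ in how much Apoe they hold, with medians of 4 Apoe UMIs of 1000 in plasma-negative and 7 in plasma-positive cells. Many genes were lower in these cells. Of 711 genes with at least 200 CPM in both libraries, 32.1% were lower by 1.2-fold or more in the top Apoe class of plasma-positive cells and 27.0% in that of plasma-negative cells. Of these genes 1.69% had a lower ratio than Sgk1 in plasma-positive cells, and 4.78% a lower ratio than Nr3c1; in plasma-negative cells the shares were 26.2% and 22.6%. Microglial genes named after their values were seen were lower as well: P2ry12, a purine receptor of resting microglia, gave 0.551 (0.536 to 0.567) and Tmem119 0.689 (0.663 to 0.717). The median mt- share was 1.21% in plasma-positive cells without Apoe and 1.7% in the top class, and the median UMI total 3820 and 4333; their part in the result was not tested.

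With levels taken from the thinned counts alone, the plasma-positive ratio by Apoe was 0.558 (0.465 to 0.665) for Sgk1 and 0.654 (0.528 to 0.802) for Nr3c1. In plasma-negative cells the thinned counts gave 0.998 (0.752 to 1.3) for Sgk1, where all UMIs gave 0.832, and 0.771 (0.515 to 1.11) for Nr3c1. By that measure 8.58% of the 711 genes were lower by 1.5-fold or more. Thinning to 2000 UMIs gave 0.709 for Sgk1, so that this size is not reached under each setting, while the ratio stayed below 1 in all that were run.

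By interferon UMIs, the plasma-positive cells with 3 or more (504 cells) had Sgk1 at 2.63 per 10000 (2.42 to 2.86) against 3.51 (3.44 to 3.58) in cells with 0, a ratio of 0.75 (0.689 to 0.815). Nr3c1 gave 1.95 against 2.39, a ratio of 0.818 (0.741 to 0.902), and Tsc22d3 0.707 (0.552 to 0.894). In the 127 plasma-negative cells of the top class the ratios were 0.991 (0.848 to 1.15) for Sgk1 and 0.958 (0.792 to 1.15) for Nr3c1, 0.65 (0.363 to 1.08) for Tsc22d3 from 15 UMIs, and 0.472 (0.235 to 0.848) for Fkbp5 from 11 UMIs; Fkbp5 in plasma-positive cells gave 0.822 (0.65 to 1.03). Of all 711 genes, 21.5% were lower by 1.2-fold in the plasma-positive and 11.5% in the plasma-negative library. With thinned counts Sgk1 gave 0.63 (0.518 to 0.759) in plasma-positive and 1.13 (0.839 to 1.48) in plasma-negative cells, and 2.11% of genes were lower by 1.5-fold.

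**Figure D4:**
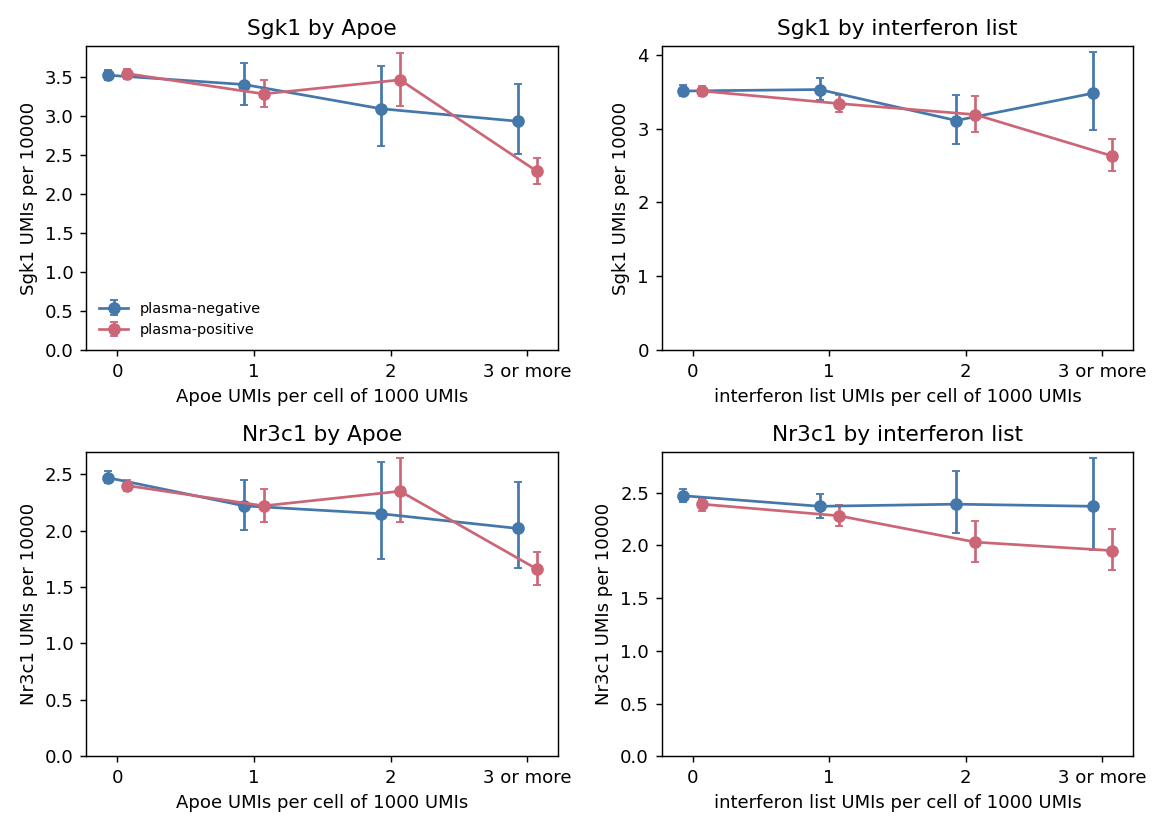
Level of Sgk1 (top) and Nr3c1 (bottom), as UMIs per 10000 of all UMIs, in cells classed by Apoe (left) or interferon list (right) UMIs after thinning to 1000 UMIs; blue, plasma-negative; red, plasma-positive; bars are 95% counting intervals. The lowest Sgk1 and Nr3c1 points, 2.29 and 1.66, are the plasma-positive cells with 3 or more Apoe UMIs.

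The Apoe and interferon classes share cells, so they were crossed. Among plasma-positive cells, the 5695 cells without either had Sgk1 at 3.58 per 10000. The 308 cells rich in interferon UMIs without Apoe had 3.4, a ratio of 0.95 (0.86 to 1.05), and the 283 cells rich in Apoe without interferon UMIs had 2.66, a ratio of 0.743 (0.669 to 0.824). The 135 cells rich in both had 1.26 (1.01 to 1.56), a ratio of 0.353 (0.281 to 0.438). For Nr3c1 the ratios in that order were 0.994 (0.882 to 1.12), 0.748 (0.657 to 0.848) and 0.545 (0.436 to 0.673). In cells without Apoe, interferon UMIs thus went with little difference in Sgk1 or Nr3c1 by this measure, although thinned counts alone gave 0.78 for Sgk1 there. In the 135 cells P2ry12 was at 0.385 times (0.358 to 0.414) its level in cells without either, and Zfp36 at 0.783 (0.552 to 1.08). Only 5 plasma-negative cells were rich in both, too few to compare. The 104 plasma-negative cells rich in Apoe without interferon UMIs gave 0.939 (0.777 to 1.12) for Sgk1 and 0.815 (0.638 to 1.03) for Nr3c1. The 113 rich in interferon UMIs without Apoe gave 0.987 (0.836 to 1.16) and 1.04 (0.857 to 1.25). The crossed classes were not set against all genes.

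Within single cells the response genes were counted together. Of the 6 response genes, none was seen in 61.3% of thinned plasma-negative and 60.9% of plasma-positive cells, 1 in 33.7% and 34.3%, and 2 in 4.79% and 4.47%. At least 3 were seen in 23 cells (0.254%) and 35 cells (0.359%), where the product of the single shares gives 0.26% and 0.276%. For 21 pairs of the 7 genes, Pearson's r over cells ran from -0.016 to 0.023 in the plasma-negative and from -0.024 to 0.033 in the plasma-positive library, and 0 pairs had more shared cells than the product of shares, beyond the counting interval, in both. The nearest was the receptor with its regulator. Nr3c1 and Fkbp5 were seen together in 97 plasma-negative cells, 1.2 times (0.976 to 1.47) the 80.6 that the shares give. In plasma-positive cells they shared 98, 1.26 times (1.02 to 1.53) the 78.0. Fkbp5 with Sgk1 had an interval above 1 in plasma-negative cells only, at 1.22 (1.02 to 1.44), against 0.963 in plasma-positive cells. Fkbp5 with Zfp36 had one in plasma-positive cells only, at 1.42 (1.01 to 1.95), against 0.765 in plasma-negative cells. Sparse counts pull r towards 0, so a weak r alone is no finding. For the most abundant members, Nr3c1 and Sgk1, shared cells were 0.95 times (0.867 to 1.04) and 1.04 times (0.951 to 1.13) the product of shares.

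**Figure D5:**
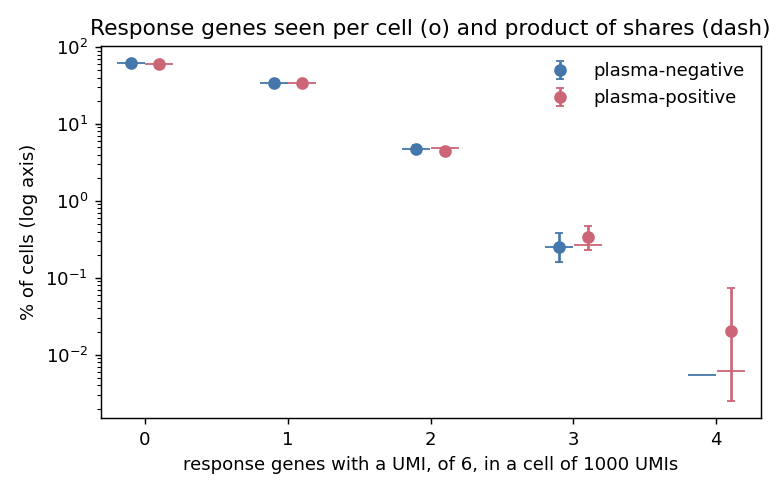
Percent of cells (log axis) by the number of the 6 response genes with a UMI in a cell thinned to 1000 UMIs; circles, observed with 95% counting intervals; dashes, the product of the single shares; blue, plasma-negative; red, plasma-positive. Circles lie on or near the dashes, with 0.254% and 0.338% of cells at 3 genes and 0 and 2 cells at 4.

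The genes most alike over cells, among 3354 with at least 50 CPM in both libraries, were likewise weak in r. For Nr3c1 the first was the fractalkine receptor gene Cx3cr1 (0.048 in plasma-negative and 0.043 in plasma-positive cells), and for Fkbp5 also Cx3cr1 (0.029 and 0.03). For Sgk1 they were Pmepa1 (0.04 and 0.049), P2ry12 (0.039 and 0.047) and Ets1 (0.037 and 0.036). The highest value for any of the other 4 genes was 0.049, for Stub1 with Klf9. The cells of 1 library share depth and sort, and these values are a description over 9064 and 9759 cells.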

How the data were processed

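The deposited matrices hold raw UMI counts per gene and cell; Cell Ranger is named as 6.1.2 per the file headers and as 3.0.1 per the submitters' processing notes. The kit was the Chromium Single Cell 3′ v3.1 kit, per the labels' protocols. The aligner settings, genome build and annotation are not given in the sources used here. Cell barcodes were not used here, so barcodes shared between the libraries were not counted, and 0 columns of other samples were found.

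Cells were filtered as stated in the report. Doublets were kept and no caller was run; an alternative left out the cells with the most UMIs at an expected rate of 0.8% per 1000 cells (778 and 859 cells). Counts were summed per library and divided by its total; no pseudocount was used. Intervals are exact Poisson for sums, Clopper-Pearson for shares of cells and, for a ratio of sums, conditional binomial; they were checked on simulated data. Thinning drew 1000 UMIs per cell without replacement (seed 1). The call is a rule of size, 1.2-fold and 1.5-fold at 10 CPM or more in at least 1 library. Genes named are the 7 members, and from each list the defining or related genes and up to 4 of the largest log2 ratios; others are marked as chosen after their values were seen. Members, lists and classes were chosen with earlier results of these data known. Alternatives were other cell filters, scalings (with edgeR 4.0.16 used only for TMM factors), depths, seeds and minimums.

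Overlapping genes came from GENCODE M21, in which 31011 of 31053 identifiers were found, and promoters from RefSeq windows of GRCm38.p6 (Python 3.11.15, numpy 2.4.6, scipy 1.17.1, pandas 2.3.3, matplotlib 3.10.9, R 4.3.3).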

Additional observations from a re-analysis of the deposited data

How the results depend on the processing

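No paired analysis was possible because there is 1 library per sort, and no replicate could be left out. Over 12 alternatives for the 7 genes, 78 of 84 log2 ratios stayed within the counting interval, and the members at 1.2-fold stayed at 0 and 0. The other 6 were Fkbp5 at -0.17 (2000 UMIs per cell), Tsc22d3 at 0.23 (1000) and 0.16 (2000), Per1 at 0.32 (1000), and Sgk1 at 0.01 with TMM and 0.01 with median-of-ratios factors; thinning leaves fewer UMIs and the scalings move the median of all genes from -0.039 to -0.001 and 0.002. The median of the inflammatory list was 0.91 with no minimum and -0.05 at 50 CPM or more, where fewer genes are tested. Alternatives on the Apoe and interferon classes, among them the levels from all UMIs, were chosen after seeing the data. For plasma-positive Sgk1 by Apoe they gave 0.709 (2000 UMIs per cell) and 0.741 (1 or more Apoe UMIs). By interferon they gave 0.767 (2000 UMIs), 0.895 (1 or more) and 0.78 (cells without Apoe UMIs). Nr3c1 by Apoe was 0.819 in cells without interferon UMIs. The cause of these shifts was not tested. Shares of cells moved with depth for 14 of 14 values. Depth limits Per1 and Klf9 most, and 1 library per group limits every comparison.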
